A study of Mus musculus with 2 samples.

Results

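The 10 genes described here encode the proteins of the intestinal mucus layer and factors by which goblet cells make them. They were Muc2, Fcgbp, Clca1, Zg16, Tff3, Muc3, Muc4, Muc13, Agr2, and Spdef, and every probe set carrying one of these symbols on the array was taken, which gave 17 of 45101 probe sets. Clca1 was matched by its gene identifier, because this gene was formerly called Clca3 and its present name was formerly used for a neighboring family member. The genes were compared between Lrrc19 KO mice and WT mice, both of C57BL/6 background, 6 weeks old, and raised under specific pathogen-free conditions. RNA of 5 mice of each genotype (2 males and 3 females) was pooled and hybridized to 1 array, so the Lrrc19 KO group and the WT group each had n = 1 and no spread between mice was measured. The cells were shaken off opened intestine in EDTA, and T cells bearing CD4 or CD8, dendritic cells, macrophages, and B cells were then removed with magnetic beads. Neither the segment of intestine nor the deleted exons of Lrrc19 are given in the sources used here. No test and no p-value is possible with 1 pool per genotype, and all values below compare these pools and nothing more.

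Mucus is the gel that separates the intestinal epithelium from its microbes. Goblet cells secrete MUC2, a very large glycoprotein whose disulfide-linked polymers form the net of the gel, together with smaller proteins that bind it, cut it, or repair the surface under it. A second set of mucins is anchored in the apical membrane of enterocytes and goblet cells and forms the glycocalyx. MUC2 has to be folded in the endoplasmic reticulum (ER), where AGR2, a protein disulfide isomerase, is required for its production in mice, and the transcription factor SPDEF drives the maturation of goblet cells from secretory progenitors.

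Expression is given as intensity, a linear value in arbitrary units, and differences are log2 values, Lrrc19 KO minus WT. The floor, the median of all probe set values that are not controls, was an intensity of 127. A gene was read from its probe set with the highest mean log2 intensity. Lrrc19 itself had an intensity of 212 in the Lrrc19 KO pool and 905 in the WT pool on its brighter probe set. Its other probe set, which can match several transcripts, gave 20.9 in the Lrrc19 KO pool, under the floor, and 391 in the WT pool. Both probe sets were thus lower in the pool labeled KO, and whether they lie in the deleted part is not known. The median of the array was 131 for Lrrc19 KO and 124 for WT, and the highest value was 25842 for Lrrc19 KO and 22420 for WT. Of 12518 genes at or above the floor in at least 1 pool, 0.967% differed at least 2-fold and 6.18% differed at least 1.5-fold in either direction (2.78% were higher and 3.4% were lower in Lrrc19 KO at 1.5-fold). The median log2 difference of all these genes was 0.01, with a robust SD of 0.27. All 10 mucus and goblet genes reached the floor in each pool. None of them differed at least 2-fold (0 higher, against 0.559% of all genes, and 0 lower, against 0.407%), and 2 of the 10, Agr2 and Spdef, were at least 1.5-fold lower in Lrrc19 KO. Their median log2 difference was -0.08, with 5 genes above 0 and 5 below 0, and it was the spread among them that was wide (-0.95 to 0.52).

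**Figure D1:**
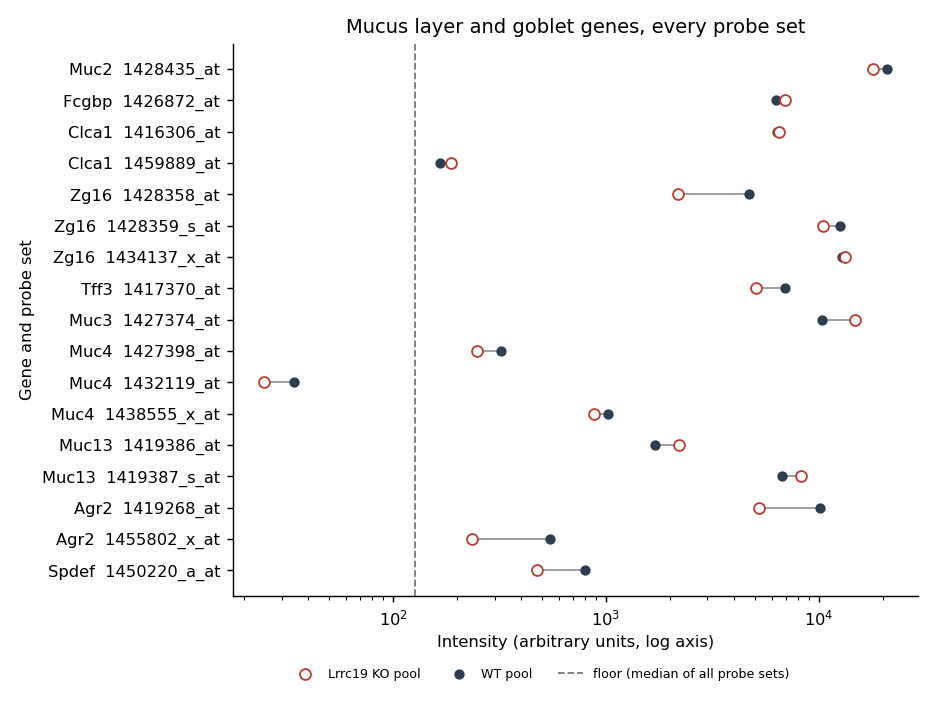
Intensity (arbitrary units, log axis) of each of the 17 probe sets of the 10 genes in the Lrrc19 KO pool (open red circles) and the WT pool (filled circles), each from 1 array, so no error can be drawn. A dashed line marks the floor (127); the widest gaps are those of the probe sets of Agr2 and of 1 of the 3 probe sets of Zg16, and the lines of Muc2, Fcgbp, and Clca1 are short.

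The regulatory sequence before these genes is shown for Agr2 and Spdef, which had the lowest differences, for Muc13, which was higher in Lrrc19 KO and held a motif in common with them, and for Muc2, the gel mucin itself. These are the 250 bases before the annotated start (for Muc13 the first of its annotated starts, the other holding no match), from RefSeq on GRCm38.p6, written 5′ to 3′ on the strand of the gene. The windows are chr12:35992675-35992924 on the plus strand, chr17:27728952-27729201 on the minus strand, chr16:33793787-33794036 on the plus strand, and chr7:141690090-141690339 on the plus strand. Capitals mark every match, on either strand, to the letters TATAAA (the box bound by TBP), CCGGAT (an ETS core of the kind SPDEF binds), CAGCTG (an E-box of the kind ATOH1 binds, which reads the same on both strands), TGTTTAC (forkhead factors such as FOXA), TTTATG (CDX2), and TGACGTG (the element of the unfolded protein response). No matches overlapped.
Agr2: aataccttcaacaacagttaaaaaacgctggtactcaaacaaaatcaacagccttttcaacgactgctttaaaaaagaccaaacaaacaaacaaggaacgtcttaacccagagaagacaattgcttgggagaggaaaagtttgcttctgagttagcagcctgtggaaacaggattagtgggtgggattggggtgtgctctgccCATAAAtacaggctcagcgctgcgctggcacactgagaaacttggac
Spdef: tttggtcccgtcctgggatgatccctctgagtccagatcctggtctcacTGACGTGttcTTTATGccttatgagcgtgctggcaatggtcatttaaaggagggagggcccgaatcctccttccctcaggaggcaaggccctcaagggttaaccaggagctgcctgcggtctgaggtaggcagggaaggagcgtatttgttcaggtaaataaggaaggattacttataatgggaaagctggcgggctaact
Muc13: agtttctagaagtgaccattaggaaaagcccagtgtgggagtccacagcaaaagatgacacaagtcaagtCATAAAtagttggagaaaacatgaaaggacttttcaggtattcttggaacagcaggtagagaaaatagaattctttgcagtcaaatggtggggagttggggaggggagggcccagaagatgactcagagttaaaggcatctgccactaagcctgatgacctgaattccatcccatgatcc
Muc2: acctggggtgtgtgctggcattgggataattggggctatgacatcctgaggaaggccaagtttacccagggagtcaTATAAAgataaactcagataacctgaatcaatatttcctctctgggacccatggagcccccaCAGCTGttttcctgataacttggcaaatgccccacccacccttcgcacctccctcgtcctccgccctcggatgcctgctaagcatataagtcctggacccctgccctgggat
TTTATG was found before Agr2 (on the opposite strand, read here as CATAAA, first base at -47), before Spdef (first base at -191), and before Muc13 (opposite strand, -180), and 10.8% of all promoter windows of this length held it. Before Spdef, TGACGTG began at -201, a motif that 1.65% of all windows held. The Muc2 window had CAGCTG at -112 (13.0% of all windows) and TATAAA at -174 (12.4%). Of the windows not printed, that of Fcgbp had CAGCTG at -208, that of Muc4 had TATAAA at -36, and that of Muc3, the gene with the highest difference, had none of these motifs. CCGGAT (4.94% of all windows) and TGTTTAC (3.17%) were in none of the windows of the 7 genes of the 10 that had an entry, which were Muc2, Fcgbp, Muc3, Muc4, Muc13, Agr2, and Spdef. No other motif searched was found before more than 1 of the printed genes. These matches describe letters in a window and were not tested as sites. Tff3, Clca1, and Zg16 had no entry.

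Muc2, the gel-forming mucin, differed little between the pools. Its probe set had an intensity of 18071 in Lrrc19 KO and 20977 in WT, a log2 difference of -0.22. This is within the robust SD of all genes, and 43.0% of all genes differed by at least as much in either direction. Both intensities lay close to the top of the values on their arrays, and whether this probe set was near the limit of the scanner was not tested.

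The secreted proteins that accompany MUC2 were likewise similar in level, apart from Tff3 and from a disagreement among the probe sets of Zg16. Fcgbp, a large protein with von Willebrand factor domains that is bound within the mucus, was at 6949 in Lrrc19 KO and 6312 in WT (log2 difference 0.14). Clca1, a metalloprotease of the mucus that acts on MUC2, was at 6532 in Lrrc19 KO and 6337 in WT (0.04), and its dimmer probe set gave 187 in Lrrc19 KO and 165 in WT (0.18). For Fcgbp and Clca1 the direction is not settled, since it depends on how the arrays are scaled to each other. Tff3, the intestinal trefoil peptide, which promotes repair of the epithelial surface, was at 5089 in Lrrc19 KO and 6944 in WT. Its log2 difference of -0.45 is a 1.36-fold lower level, short of 1.5-fold, and 12.5% of all genes differed by at least as much.

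Zg16, a small lectin that binds the peptidoglycan of Gram-positive bacteria, was measured by 3 probe sets that did not give the same answer. The brightest gave 13324 in Lrrc19 KO and 12893 in WT (log2 difference 0.05), and the next gave 10487 in Lrrc19 KO and 12538 in WT (-0.26). The third gave 2176 in Lrrc19 KO and 4726 in WT, a log2 difference of -1.12 and thus 2.17-fold lower. The brightest probe sets carry the suffixes that mark probes able to match several transcripts, and the third does not. The log2 differences of the 3 probe sets spanned 1.17. Among 1235 genes with 3 probe sets at or above the floor the median span was 0.32, and 1.30% of them spanned at least as much as Zg16. The level of Zg16 in Lrrc19 KO relative to WT therefore depends on the probe set that is read. For the other genes with more than 1 probe set at or above the floor, the span was 0.26 (Agr2), 0.15 (Muc4), 0.14 (Clca1), and 0.07 (Muc13).

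The membrane mucins did not share a direction. Muc3, a mucin of the enterocyte brush border, had the largest positive difference of the 10 genes, at 14862 in Lrrc19 KO and 10377 in WT (log2 difference 0.52, or 1.43-fold higher), and 8.83% of all genes differed by at least as much in either direction. Muc13, a smaller membrane mucin of the intestinal epithelium, was higher in Lrrc19 KO on both of its probe sets, at 8262 in Lrrc19 KO and 6736 in WT (0.29) and at 2194 in Lrrc19 KO and 1704 in WT (0.36). Muc4, a membrane mucin that carries epidermal growth factor-like domains, was lower on its brightest probe set, at 882 in Lrrc19 KO and 1021 in WT (-0.21). A second probe set of Muc4 gave 249 in Lrrc19 KO and 320 in WT (-0.36), and its remaining probe set was under the floor in both pools (24.8 in Lrrc19 KO and 34.2 in WT). None of these membrane mucins reached 1.5-fold in the values as deposited, and only 6.18% of all genes did.

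Agr2 and Spdef, the genes of the list that act in making the goblet cell and its mucin, had the largest negative differences. Agr2 was at 5266 in Lrrc19 KO and 10151 in WT on its brighter probe set, 1.93-fold lower (log2 difference -0.95), and at 235 in Lrrc19 KO and 545 in WT on the other, 2.32-fold lower (-1.21). Both probe sets thus gave the same direction, with a difference close to 2-fold. The dimmer one carries a suffix that marks probes able to match several transcripts, as does the only probe set of Spdef. Of all genes, 1.24% differed by at least as much as Agr2 in either direction. Spdef was at 476 in Lrrc19 KO and 794 in WT on its only probe set, 1.67-fold lower (-0.74), and 2.96% of all genes differed by at least as much. Markers of enteroendocrine cells, another secretory lineage that comes from Atoh1-expressing progenitors, were also lower (median log2 difference -0.62), and their part in these values was not tested. The share of all genes at least 1.5-fold lower was 3.4%, against which 2 of 10 is a small count in a list whose members were chosen with these values known.

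**Figure D2:**
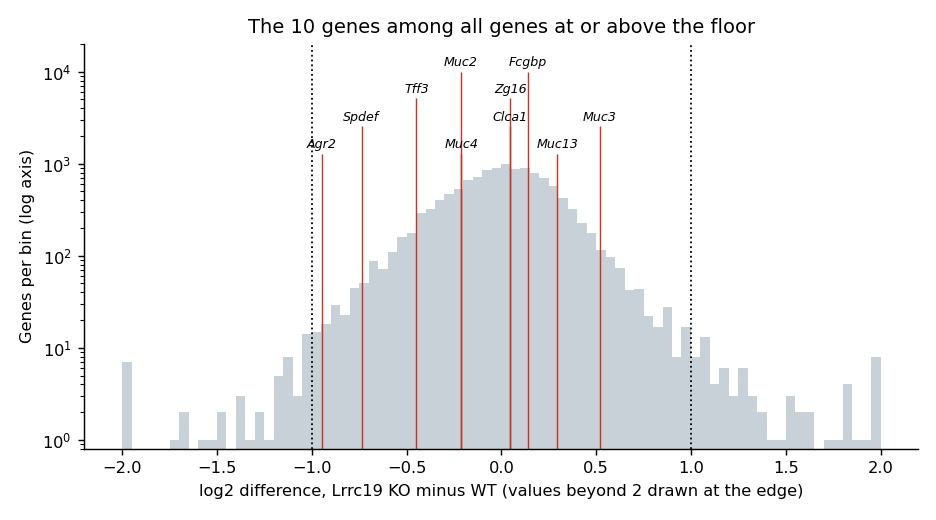
Histogram of the log2 difference (Lrrc19 KO minus WT, horizontal axis) of the 12518 genes at or above the floor, with the number of genes per bin on a log axis; red lines mark the 10 genes and dotted lines mark 2-fold. Agr2 (-0.95) and Spdef (-0.74) lie in the lower tail, Muc3 (0.52) toward the upper one, and Clca1, Zg16, and Fcgbp near the center.

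The scaling applied between the arrays is unknown, and the signs of the smaller differences rest on it. Setting both arrays to the same median added -0.08 to every log2 difference, centering them on widely expressed genes (9 of the 11 chosen had a probe set of their own) added 0.07, and centering them on 12 epithelial genes added -0.06. Under these scalings Agr2 stayed between -1.03 and -0.87, Spdef between -0.82 and -0.66, and Muc3 between 0.44 and 0.59, while Clca1 and Zg16 changed sign. Muc3 passed 1.5-fold with centering on the widely expressed genes, and Agr2 passed 2-fold with both arrays at the same median and when they were centered on the epithelial genes. The spike-ins for hybridization, which are microbial transcripts put into every labeled sample, were brighter on the Lrrc19 KO array on all 18 probe sets, by a median log2 difference of 0.50. Centering on them took the median of all genes to -0.49, Muc13 to -0.20, and Muc3 to 0.02, so that even the direction of Muc13 is open under this scaling. Each of these scalings adds the same constant to every gene, so the order of the 10 genes could not change under them. On the brightest probe sets, Agr2 and Spdef lay lowest in that order and Muc13 and Muc3 highest. A scaling that depends on intensity was not run and could change it.

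**Figure D3:**
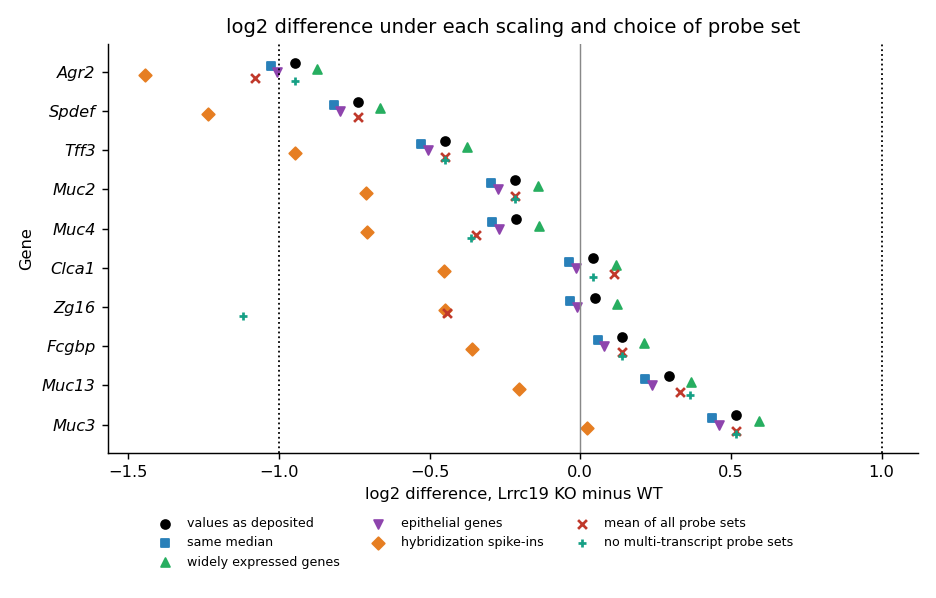
The log2 difference (Lrrc19 KO minus WT) of each of the 10 genes with the values as deposited (black), under 4 other scalings of the arrays, with all probe sets averaged, and without probe sets that can match several transcripts; dotted lines mark 2-fold. Zg16 moves most with the choice of probe set (0.05, -0.44, and -1.12), and centering on the spike-ins (orange) shifts all genes to the left by 0.50.

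The genes around this set were read from a list of 68 goblet cell and mucus genes that are not among the 10. Of these, 66 had a probe set of their own and 61 were at or above the floor. At least 1.5-fold lower in Lrrc19 KO were 12 of the 61 (19.7%), and 3 (4.92%) were at least that much higher, against 3.4% and 2.78% of all genes. Over the list, the median log2 difference was -0.08, and 46 genes differed by less than 1.5-fold. The 12 lower genes came from 5 of the 8 roles on the list, and no test compared the roles.

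Genes of the ER had the lowest median. Of 6 at or above the floor all were below 0, with a median log2 difference of -0.81, and 4 were at least 1.5-fold lower. Of all genes, 47.9% were below 0 and 3.4% were at least 1.5-fold lower. Txndc5, a thioredoxin-domain disulfide isomerase, was at 1359 in Lrrc19 KO and 2758 in WT (log2 difference -1.02), and at 1054 in Lrrc19 KO and 2341 in WT on its second probe set (-1.15). Pdia5, another disulfide isomerase, was at 565 in Lrrc19 KO and 1108 in WT (-0.97), and Pdia6, of the same enzyme family, was at 1105 in Lrrc19 KO and 1975 in WT (-0.84). Tmed3, a protein of vesicles between the ER and the Golgi apparatus, was at 1065 in Lrrc19 KO and 1842 in WT (-0.79). Its dimmer probe set, however, ran the other way (271 in Lrrc19 KO and 228 in WT). Ern2, the ER stress sensor found in mucus-secreting epithelium, was at 440.4 in Lrrc19 KO and 472 in WT (-0.10). The 3 enzymes of disulfide exchange at or above the floor on this list were thus lower along with Agr2, and the sensor was nearly level. Agr3, the closest relative of Agr2, was under the floor in each pool (32.4 in Lrrc19 KO and 58.8 in WT). These isomerases are made in other secretory cells too.

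Among 8 transcription factors, 2 were at least 1.5-fold lower beside Spdef, against 3.4% of all genes. Atoh1, which commits progenitors to the secretory lineage, was at 1434 in Lrrc19 KO and 2207 in WT (log2 difference -0.62). Creb3l4, a membrane-bound factor of the ER, was at 123 in Lrrc19 KO and 399 in WT. Its value in Lrrc19 KO was under the floor, and with the floor in its place Creb3l4 was at least 3.13-fold lower. Creb3l1, a related factor, was at 1955 in Lrrc19 KO and 2307 in WT (-0.24). Klf4, a factor of goblet cell and enterocyte differentiation, ran the other way, at 7718 in Lrrc19 KO and 5669 in WT (0.44), with 5228 in Lrrc19 KO and 3649 in WT on its second probe set. Atoh1 and Spdef were thus lower and Klf4 higher, but Klf4 did not reach 1.5-fold. With centering on the spike-ins, the log2 difference of Klf4 was below 0 on its brighter probe set. On its second probe set (0.52 as deposited) it stayed barely above 0.

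Mucin glycosylation had 13 genes at or above the floor, with a median log2 difference of -0.28 and 3 at least 1.5-fold lower. B3gnt6, which makes the core structure of colonic mucin glycans known as core 3, was at 361 in Lrrc19 KO and 668 in WT (-0.89). C1galt1c1, the chaperone without which the core 1 enzyme is not folded, was at 1863 in Lrrc19 KO and 3230 in WT (-0.79), and Galnt12, which starts O-glycan chains, was at 963 in Lrrc19 KO and 1481 in WT (-0.62). No gene of glycosylation was at least 1.5-fold higher. Of all genes, 3.4% were at least 1.5-fold lower and 2.78% higher, so none higher among 13 is near that share.

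Secreted products of the list had a median log2 difference of -0.04, and some were level, like Muc2 and Clca1. Of 14, 2 were at least 1.5-fold lower and 1 was higher, against 3.4% and 2.78% of all genes. Retnlb, an antimicrobial resistin-like protein of goblet cells, was at 7877 in Lrrc19 KO and 8325 in WT (log2 difference -0.08), and the stomach trefoil peptides were at 820.1 in Lrrc19 KO and 833 in WT (Tff1, -0.02) and 177 in Lrrc19 KO and 188 in WT (Tff2, -0.08). Tpsg1, a serine protease, was at 409 in Lrrc19 KO and 862 in WT (-1.07), and the guanylate cyclase ligand Guca2b was at 398 in Lrrc19 KO and 637 in WT (-0.68). Clca4a, a relative of Clca1, was at 4373 in Lrrc19 KO and 2622 in WT (0.74). With centering on the spike-ins the values of Tpsg1 and Guca2b were lower still, and that of Clca4a remained above 0. The 3 other mucins at or above the floor (Muc1, Muc5ac, and Muc20) had log2 differences between 0.12 and 0.23.

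The remaining genes past 1.5-fold were listed under crosslinking or ion transport, and an action on the mucus was not measured. Tgm3, a transglutaminase, an enzyme class that crosslinks proteins, was higher on both probe sets, at 2881 in Lrrc19 KO and 737 in WT (log2 difference 1.97) and at 579 in Lrrc19 KO and 174 in WT (1.74). Slc26a3, the chloride and bicarbonate exchanger of the colonic surface, was at 8844 in Lrrc19 KO and 4525 in WT (0.97), and was higher on all of its 4 probe sets. Slc12a8, a solute carrier, was at 675 in Lrrc19 KO and 1348 in WT (-0.998), and lower on its second probe set too (97.1 in Lrrc19 KO and 181 in WT). Markers of the distal colon were also higher in Lrrc19 KO (median 1.51), and their part in the values of Tgm3, Slc26a3, and Clca4a was not tested. None of the 10 genes of granules and secretion reached 1.5-fold, which is near the share of all genes that did (6.18%).

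**Figure D4:**
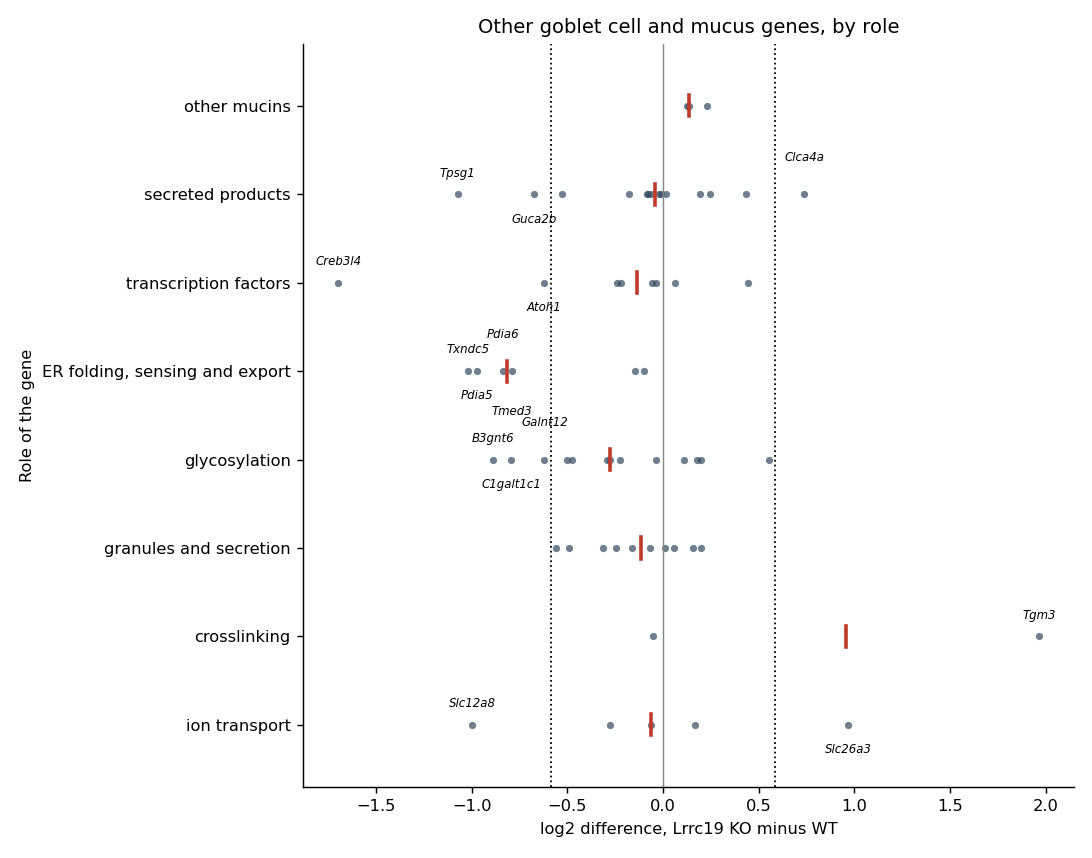
The log2 difference (Lrrc19 KO minus WT) of the 61 other goblet cell and mucus genes at or above the floor (points), by role; red bars are the median of a role, and dotted lines mark 1.5-fold, beyond which genes are named; Creb3l4 is drawn at its measured value. The 6 ER genes have the lowest median (-0.81), and the secreted products have a median of -0.04 with values from -1.07 to 0.74.

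Markers of other cells and of gut regions also differed between these pools, and their part in the values above was not tested. In pooled RNA, fewer cells of a type and less RNA per cell cannot be told apart. General epithelial markers were level (12 of 12 at or above the floor, median log2 difference 0.04), the brightest being Krt8 at 20184 in Lrrc19 KO and 19633 in WT and Lgals4 at 15398 in Lrrc19 KO and 16318 in WT. Enteroendocrine markers had 10 of 13 at or above the floor, 7 of them at least 1.5-fold lower, against 3.4% of all genes. Among the 7, Neurog3 was at 88.4 in Lrrc19 KO, under the floor, and at 144 in WT, so it was kept only through WT. With the floor in place of its Lrrc19 KO value, Neurog3 was less than 1.5-fold lower. The median of the enteroendocrine markers was -0.62, and their summed intensity was 9055 in Lrrc19 KO and 13549 in WT. The brightest of them were the granin Chgb, at 1855 in Lrrc19 KO and 2910 in WT, and the hormone gene Nts, at 1549 in Lrrc19 KO and 3013 in WT. Tuft cell markers (7 of 10, median 0.14) and absorptive enterocyte markers (16 of 17, median 0.10) had medians above 0 in these values, and Paneth cell markers (7 of 10) and stem cell markers (8 of 9) had medians of -0.12 and -0.17. Distal colon markers were higher, with 5 of 10 at or above the floor, a median of 1.51, and a summed intensity of 10825 in Lrrc19 KO and 3041 in WT. Among these 5, Hoxd13 was at 255 in Lrrc19 KO and 42.4 in WT, under the floor, so it was kept only through Lrrc19 KO. Hoxd10 was nearly level (log2 difference 0.07). The brightest distal colon markers were Aqp8, a water channel, and Atp12a, a proton pump. Aqp8 was at 4873 in Lrrc19 KO and 2019 in WT, and Atp12a at 4760.2 in Lrrc19 KO and 531 in WT. Ileum markers (6 of 8) had a median of -0.42, but their summed intensity was 11398 in Lrrc19 KO and 10365 in WT. Markers of the proximal and middle colon and cecum (6 of 7) had a median of 0.30, but their summed intensity was 32950 in Lrrc19 KO and 33700 in WT. For these lists the median and the sum thus differed in direction, and each sum rested largely on 1 gene. For the ileum it was Ang4 (8522 in Lrrc19 KO and 6319 in WT), the only gene of the 6 above 0. For the proximal and middle colon and cecum it was Car1 (18909 in Lrrc19 KO and 22420 in WT), the only gene of the 6 below 0. Stomach markers (3 of 10) had a median of -0.02. Smooth muscle markers were present and higher in Lrrc19 KO on all of 10 genes, where 52.1% of all genes were above 0. The list had a median of 0.44 and a summed intensity of 80204 in Lrrc19 KO and 60220 in WT. Its brightest genes were Acta2 at 14996 in Lrrc19 KO and 12549 in WT and Tagln at 12771 in Lrrc19 KO and 10290 in WT. The pools labeled epithelial cells therefore held transcripts of muscle at high intensity. The stroma list (10 of 10) had a median of 0.07 and the leukocyte list (9 of 12) a median of -0.04. Of the leukocyte markers, 2 of 9 were at least 1.5-fold lower and none was as much higher, against 3.4% and 2.78% of all genes. The 2 lower markers were the macrophage receptor Adgre1 and the T cell receptor subunit Cd3g. Adgre1 was at 363 in Lrrc19 KO and 606 in WT, and Cd3g at 171 in Lrrc19 KO and 264 in WT. The other T cell markers at or above the floor, Cd3e, Cd8a, and Cd4, had log2 differences of 0.13, 0.23, and 0.16. Of the 9 leukocyte markers, 4 were above 0 and 5 below 0. The brightest leukocyte markers were Lyz2, at 1883 in Lrrc19 KO and 2330 in WT, and Csf1r, at 1240 in Lrrc19 KO and 1376 in WT. Plasma cells also make ER isomerases in quantity. Their markers, a list added after the values were seen, had 11 of 12 at or above the floor, a median of -0.11, and a summed intensity of 38009 in Lrrc19 KO and 39814 in WT, with Igha at 17423 in Lrrc19 KO and 19219 in WT and Jchain at 8701 in Lrrc19 KO and 9030 in WT as the brightest. Of the 11 plasma cell markers, 1 was at least 1.5-fold lower and 1 at least 1.5-fold higher, against 3.4% and 2.78% of all genes. The lower one was Fkbp11, an ER chaperone, at 180 in Lrrc19 KO and 369 in WT. The higher one was Prdm1, at 176 in Lrrc19 KO and 117 in WT, the latter under the floor. With centering on the spike-ins, each of these medians above 0 except that of the distal colon was below 0.

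**Figure D5:**
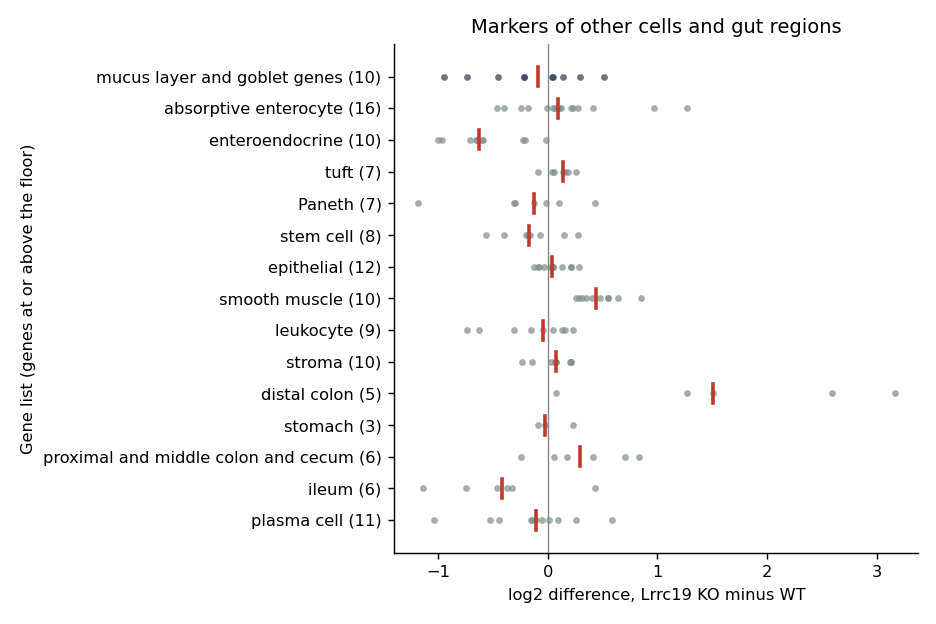
The log2 difference (Lrrc19 KO minus WT) of the 10 mucus and goblet genes and of each marker list (points are genes at or above the floor, red bars are medians, numbers of genes in parentheses). Enteroendocrine (-0.62) and ileum (-0.42) markers lie to the left of 0, and smooth muscle (0.44) and distal colon (1.51) markers lie to the right.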

How the data were processed

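Gut epithelial cell RNA of Lrrc19 KO and WT mice was measured on 1 Affymetrix mouse array per genotype, each with RNA pooled from 5 mice. The deposited values were linear intensities. RMA is named in the submitters' processing notes, with no version, but its output would be on a log2 scale with matched distributions, and these values have neither property, so the scaling between arrays is unknown. An error of scaling by a constant factor adds a constant to every log2 difference. An error that varies with intensity would not, and such an error was not tested. Values were set to at least 1 and log2 was taken. Of 45037 probe sets that are not controls, 34945 carried 1 gene symbol, 932 carried several, and 9160 had no name here. RefSeq gene identifiers gave the current symbol of 34741 probe sets. A gene was read from the probe set with the highest mean log2 intensity (18193 genes). Gene coordinates are not given, since no genome build goes with the array values, and promoter windows are those of RefSeq on GRCm38.p6.

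No test was run, since each group had 1 pool. Precision is limited by there being 1 array per genotype. The rule for named genes took all 10 genes, every gene of the goblet and mucus list past 1.5-fold (15 genes), then Tff1, Tff2, Retnlb, Atoh1, Klf4, Creb3l1, Ern2, and B3gnt6 whatever their values, and the 2 brightest genes of each marker list, which are printed for the epithelial, enteroendocrine, distal colon, smooth muscle, leukocyte, and plasma cell lists. It set a limit of 16 genes of the goblet and mucus list, but its parts together came to 21, and all are given. Agr3, Adgre1, Cd3g, Cd3e, Cd8a, Cd4, Fkbp11, Prdm1, Neurog3, Hoxd13, Hoxd10, Ang4, and Car1 were named after their values were seen. The genes, lists, and limits were chosen with earlier results of these data known. Alternatives were 4 other scalings, other choices of probe set, other floors, and raising values under the floor to it. Scripts used Python 3.11.15, NumPy 2.4.6, and pandas 2.3.3, and were tested on simulated data.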

Additional observations from a re-analysis of the deposited data

How the results depend on the processing

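No paired analysis was possible because each genotype had 1 pool and no test was run. The count of the 10 genes at least 2-fold different, 0 in the values as deposited, was 1 (Agr2, lower in Lrrc19 KO) with both arrays at the same median, with centering on the epithelial genes, and with all probe sets averaged. It was 1 (Zg16, lower) without probe sets that can match several transcripts, where Spdef has no probe set left, and 2 (Agr2 and Spdef) with centering on the spike-ins. The count at 1.5-fold was 2 or 3 under every alternative except the spike-ins, where 5 were lower. Centering on the spike-ins also took the median of the 10 genes to -0.58, the count of the goblet and mucus list past 1.5-fold to 30, and its median to -0.58, against -0.08, 15, and -0.08 in the values as deposited. Under this scaling 37% of all genes passed 1.5-fold. The count at 1.5-fold was 3 with centering on the widely expressed genes (Muc3 higher) and with the dimmest probe set at or above the floor, chosen after seeing the data. The other alternatives moved the medians by less than the robust SD of all genes, and the goblet and mucus list count by less than 1.5 times. Reading genes by the highest mean linear intensity, chosen after seeing the data, gave 16 genes of that list past 1.5-fold. With 1 pool per genotype, the spread between mice and between arrays is unknown, so a difference of any size cannot be told from either. The robust SD of all genes is a spread over genes and measures neither of them.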
